A study of Mus musculus with 5 samples.

Results

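The keratin genes encode the chains of the intermediate filaments of epithelial cells, and 54 of the 51912 genes listed for each library belong to the family, chosen by a mouse symbol made of Krt, a number and at most 1 final letter. RNA was sequenced from tissue labelled dorsolateral prostate of 5 male mice aged 7 months. All 5 mice carried the SV40 C3(1) T-antigen transgene, an oncogene behind the C3(1) promoter, and Ghr flox/flox, floxed alleles of the growth hormone receptor gene, and all received 250 mg/kg tamoxifen on each of 5 days, with tissue taken 1 month after the last dose. The 3 Ghr deletion libraries came from mice that also carried ROSA26Cre-ERT2, a tamoxifen-inducible recombinase made in most cell types, while no Cre is listed for the 2 mice behind the tamoxifen control libraries, so deletion of Ghr and presence of Cre cannot be told apart. The question put to the keratins is whether their levels differed after induced loss of the receptor.

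Keratin filaments form from pairs of unlike chains, an acidic type I chain and a basic type II chain. Luminal cells of the prostate and of other simple glands are known for KRT8 with KRT18 and often KRT19, basal cells for KRT5 with KRT14 and also KRT15, and the umbrella cells of the bladder lining for KRT20. Other members are known from stratified mucosa, epidermis, hair and the root sheath. By these roles the 54 genes were divided into 5 simple, 4 basal, 2 urothelial, 5 mucosal stratified, 9 epidermal and stress, 25 hair and root sheath and 4 other keratins. There were 28 type I and 26 type II genes. In GENCODE release M21 (GRCm38) 27 lay on chromosome 11 and 27 on chromosome 15, where Krt18 was the only type I gene.

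Sequence before the RefSeq start is shown for Krt20, the member that set 1 library apart, and for Krt5 and Krt14. Krt5 and Krt14 are the partner chains of basal cells, and their ratio differed between libraries. Each run is the 250 bases before the RefSeq start of the gene (GRCm38.p6), read 5′ to 3′ on the minus strand, with capitals marking a TATA box (TATAAA on either strand). The Krt14 window lies within the longer GENCODE gene, whose 5′ end is base 100207548, but in no annotated exon. The bases before that 5′ end were not searched.
Krt20, chr11:99438154-99438403: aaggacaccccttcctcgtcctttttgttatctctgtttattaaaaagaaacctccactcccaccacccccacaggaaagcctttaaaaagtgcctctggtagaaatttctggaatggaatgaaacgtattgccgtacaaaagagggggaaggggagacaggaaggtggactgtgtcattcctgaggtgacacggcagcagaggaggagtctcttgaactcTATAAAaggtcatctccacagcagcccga
Krt5, chr15:101712906-101713155: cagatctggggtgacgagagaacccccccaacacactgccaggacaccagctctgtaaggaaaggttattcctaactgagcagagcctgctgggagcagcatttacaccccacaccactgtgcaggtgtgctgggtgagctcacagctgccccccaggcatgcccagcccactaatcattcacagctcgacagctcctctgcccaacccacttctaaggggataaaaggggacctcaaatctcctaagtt
Krt14, chr11:100206031-100206280: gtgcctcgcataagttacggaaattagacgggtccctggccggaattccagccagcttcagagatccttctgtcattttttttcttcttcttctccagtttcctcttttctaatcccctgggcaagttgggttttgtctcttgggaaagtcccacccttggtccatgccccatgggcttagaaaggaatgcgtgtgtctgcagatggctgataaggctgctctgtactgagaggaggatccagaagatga
The Krt20 window held a TATA box whose first base lay 29 bases before the start, and the other 2 windows held none. For Krt14 this does not describe the bases before the 5′ end of the GENCODE gene. TATAAA on either strand was present in 17 of 37 windows of 36 keratin genes, against 12.4% of 32817 windows of all genes. The Sp1 box GGGCGG was in 2 keratin windows and 32.7% of all windows, and the AP-1 motif TGANTCA in 2 keratin windows and 6.75% of all windows, both searched on either strand. None of the 3 printed windows held either motif. No motif here overlaps another by its letters, and a match is a description of sequence, not a binding site.

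Libraries differed in depth and content before any keratin was considered. Total expected counts ran from 28536656 to 37910328 in the deletion libraries and were 47656216 and 13812483 in the controls. Ghr itself had 8.13, 20.9 and 12.1 CPM (counts-per-million units with TMM scaling) in the deletion libraries and 14.4 and 31.3 CPM in the controls, with overlapping groups (log2 fold change -0.73, SE 0.515; edgeR adjusted p = 0.995). A gene-level count also takes reads from exons outside a floxed segment, so it does not check the genotype labels. Of the prostate markers, Pbsn, the probasin gene, read 0.12, 0.22 and 0.15 TPM (transcripts-per-million units, corrected for gene length) in the deletion libraries and 4.08 and 0.10 TPM in the controls. It had 411 counts in control replicate 1 and at most 8 in any other library. Tgm4 read 0.43, 0.89 and 1.55 TPM in the deletion libraries and 0.77 and 0.76 TPM in the controls, and Hoxb13 was at 0 counts in deletion replicate 1 and control replicate 2. Summed TPM of 5 seminal vesicle genes ran from 18212 to 198630 in the deletion libraries and was 163054 and 23297 in the controls. The groups overlapped for Svs2, Svs5 and Pate4, while Svs4 and Svs6 of the same list were lower in 3 of 3 deletion libraries in CPM and TPM. Of all tested genes, 10.2% were lower in this way in CPM and 0.688% in TPM. For both Svs4 and Svs6, control replicate 1 was far above control replicate 2. Svs4 had 713, 1718 and 160.4 CPM in the deletion libraries and 171213 and 1926 CPM in the controls (DESeq2 adjusted p = 0.00034; edgeR adjusted p = 0.991). Svs6 had 10.8, 6.48 and 5.92 CPM in the deletion libraries and 41009 and 116 CPM in the controls (DESeq2 adjusted p = 7.6e-06; edgeR adjusted p = 0.985). With few prostate transcripts, abundant seminal vesicle transcripts and, in deletion replicate 3, the urothelial transcripts described further on, the tissue label is in doubt. Differences between the groups in tissue content and in keratin expression cannot be told apart here. Epidermal markers other than the keratins and Ivl (Lor, Flg and Krtdap) had at most 2 counts in any library. Mesenchyme and muscle markers summed to 159 to 1240 TPM in the deletion libraries and to 70.9 and 820.7 TPM in the controls, and the mesothelial list to 0.08 to 9.28 and to 0.35 and 0.70 TPM, its deletion replicate 3 value being mostly Upk3b. The 50 genes with the most counts held 50.9%, 50.4% and 22.7% of counts in the deletion libraries and 74.7% and 28.2% in the controls, and the median TPM of all tested genes was 1.85, 1.86 and 6.42 in the deletion libraries and 0.56 and 3.48 in the controls. Levels are therefore compared between genes in TPM, and between libraries in CPM, or as shares of a library's own keratin TPM.

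Of the 54 keratins, 12 reached 1 TPM in at least 1 library, 19 had counts but stayed under 1 TPM everywhere, and 23 were at 0 counts in every library. All 5 simple keratins and 3 of the 4 basal ones were among the 12. The others were Krt20, the mucosal Krt4, the epidermal Krt10 and Krt80. Among the 25 hair and root sheath keratins 16 were at 0 counts in all libraries, and no member had more than 5 counts in any library. The stress keratins Krt6a and Krt6b, induced in wounded skin, were at 0 counts throughout, and Krt16, their usual partner, had 1 count in control replicate 2. The map of TPM by gene and library shows Krt18, Krt8 and Krt19 as the leading keratins of every library.

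**Figure D1:**
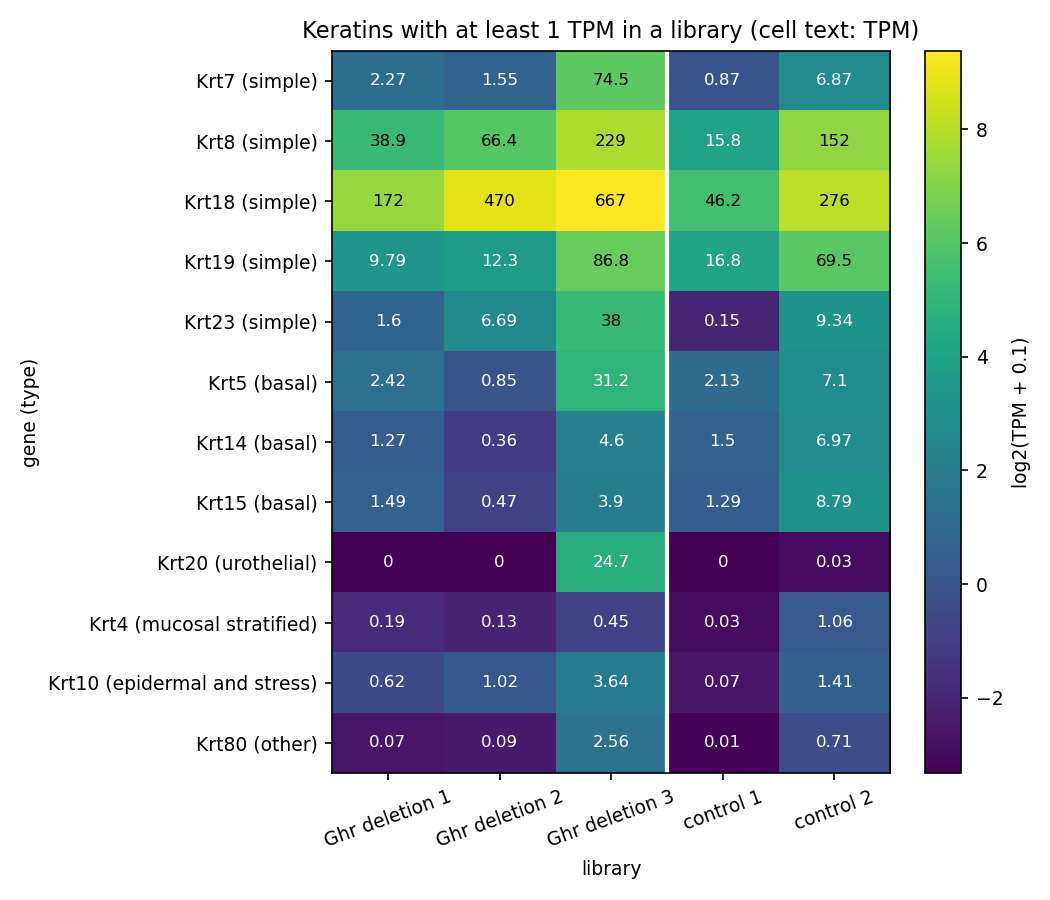
TPM of the 12 keratins that reached 1 TPM in a library (rows, with their type) in each of the 5 libraries (columns), coloured by log2(TPM + 0.1), with the TPM printed in each cell. Krt18 is the highest keratin in every library, and Krt20 reaches 24.7 TPM in deletion replicate 3 and at most 0.03 TPM elsewhere.

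Krt18, the type I chain of simple epithelium (chromosome 15, 102028180 to 102032027, plus strand), was the most abundant keratin in every library. It read 172.45, 470.2 and 667 TPM in the deletion libraries and 46.2 and 276 TPM in the controls, and ranked between 94th and 189th of all genes in TPM. Its type II partner Krt8 (chromosome 15, 101996698 to 102004482, minus strand), encoded nearby on the other strand, read 38.9, 66.4 and 229 TPM in the deletion libraries and 15.8 and 152 TPM in the controls. Krt18 therefore exceeded Krt8 in all 5 libraries, by 4.44, 7.09 and 2.92 times in the deletion libraries and by 2.93 and 1.82 times in the controls. Krt8 shares 26.9% of its 50-base transcript windows with the pseudogene Krt8-ps, which was given at most 0.52 TPM in any library, while Krt18 shares 0.72% with other annotated genes. An antisense gene, Gm36026, overlaps Krt8, and the authors' strand setting is not given in the sources used here.

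Krt19, a type I keratin of simple and ductal epithelium (chromosome 11, 100140810 to 100148665, minus strand), followed Krt18 and Krt8 in 4 libraries and stood above Krt8 in control replicate 1. It read 9.79, 12.3 and 86.8 TPM in the deletion libraries and 16.8 and 69.5 TPM in the controls. The ratio of Krt19 to Krt8 TPM was 0.252, 0.185 and 0.380 in the deletion libraries and 1.06 and 0.457 in the controls. In bulk tissue fewer cells of a type and less RNA per cell cannot be told apart. Set against Epcam, a general epithelial adhesion gene, Krt19 stood at 0.270, 0.157 and 0.235 in the deletion libraries and at 1.39 and 0.488 in the controls. The ratios of Krt18, Krt7, Krt5 and Krt23 to Krt8 overlapped between groups. Those of Krt8, Krt18, Krt7 and Krt5 to Epcam overlapped as well. How many of all genes separate the groups in such ratios was not computed. These ratios do not depend on the scaling between libraries, and as they were chosen after their values were seen no test was made.

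Within each library's keratin TPM the simple type held 97.2%, 99.4% and 93.7% in the deletion libraries and 93.9% and 94.9% in the controls, so the groups overlapped. The basal type held 2.28%, 0.321% and 3.47% in the deletion libraries and 5.89% and 4.39% in the controls, lower in all 3 deletion libraries (mean 2.02% ± 1.59, SD, n = 3, against 5.14% ± 1.06, SD, n = 2). Type I chains exceeded type II chains by 4.26, 7.10 and 2.46 times in summed TPM in the deletion libraries and by 3.51 and 2.22 times in the controls. Of the 12 members, 4 had shares of keratin TPM that did not overlap between groups, where TPM over the same summed keratin TPM did not overlap for 14.1% of tested genes (3.94% higher and 10.1% lower). Krt18 was higher, at 74.5%, 83.9% and 57.0% in the deletion libraries against 54.4% and 51.0% in the controls. Krt19 was lower, at 4.23%, 2.19% and 7.43% against 19.7% and 12.8%. Krt14 and Krt15 were also lower, at 0.335% ± 0.247 and 0.354% ± 0.280 in the deletion libraries (SD, n = 3) against 1.53% ± 0.339 and 1.57% ± 0.0731 in the controls (SD, n = 2). A share can be lower in a library because another keratin is higher, and the 4 shares are not independent of each other.

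**Figure D2:**
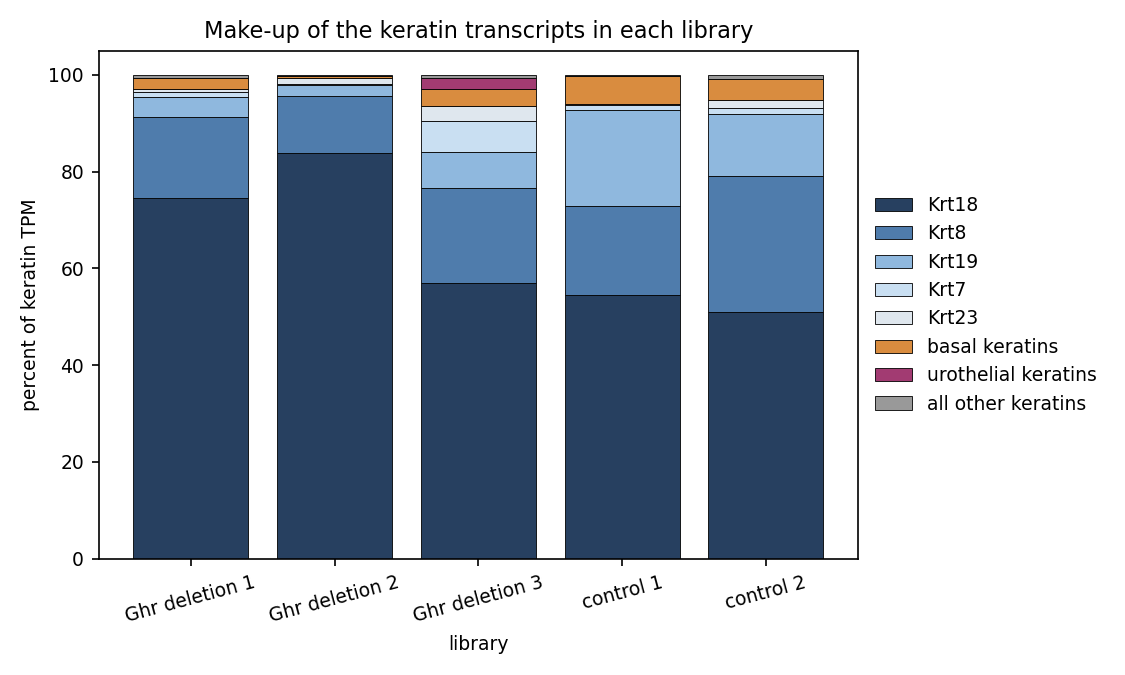
Percent of each library's summed keratin TPM (vertical axis) held by single simple keratins and by the basal, urothelial and all other keratins, for 3 Ghr deletion and 2 control libraries. Krt18 holds 57.0% to 83.9% in the deletion libraries and 51.0% and 54.4% in the controls, and the urothelial type is visible in deletion replicate 3 alone.

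In the comparison of groups, 14 keratins passed the low-count filter and 40 did not. By edgeR's quasi-likelihood test 0 of the 14 passed at a Benjamini-Hochberg adjusted p under 0.05 (adjusted p of 0.985 to 0.998), where 0% of 18615 genes did. At an unadjusted p under 0.05 there were 3 keratins, where 4.92% of genes passed. All 3 were lower (Krt15, Krt14 and Krt19), where 3.23% of genes were lower, and 0 were higher, where 1.69% of genes were. DESeq2 passed 1, Krt15, where it passed 0.968% of the genes it gave an adjusted p, and limma-voom passed 0, where 0% of genes passed. The median log2 fold change of the 14 was -0.28, with 6 above and 8 below 0, beside a median of 0.0045 over all tested genes. In CPM the groups did not overlap for 5 of the 14, where they did not for 19.6% of genes. All deletion libraries lay above both controls for 1 keratin, Krt18, where 9.43% of genes did so, and below both for 4, Krt14, Krt15, Krt17 and Krt19, where 10.2% of genes did so. On the TPM scale 0 of the 14 separated, where 5.68% of genes did (4.99% higher and 0.688% lower). With total counts in place of TMM scaling the median of all genes moved to 0.23 and 2 members, Krt14 and Krt15, separated, where 7.87% of genes did. Krt17, whose nearest values were 0.650 and 0.685 CPM, overlapped with upper-quartile factors, under which 4 of the 14 and 19.6% of genes separated. The libraries are biological replicates by the series' own description.

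**Figure D3:**
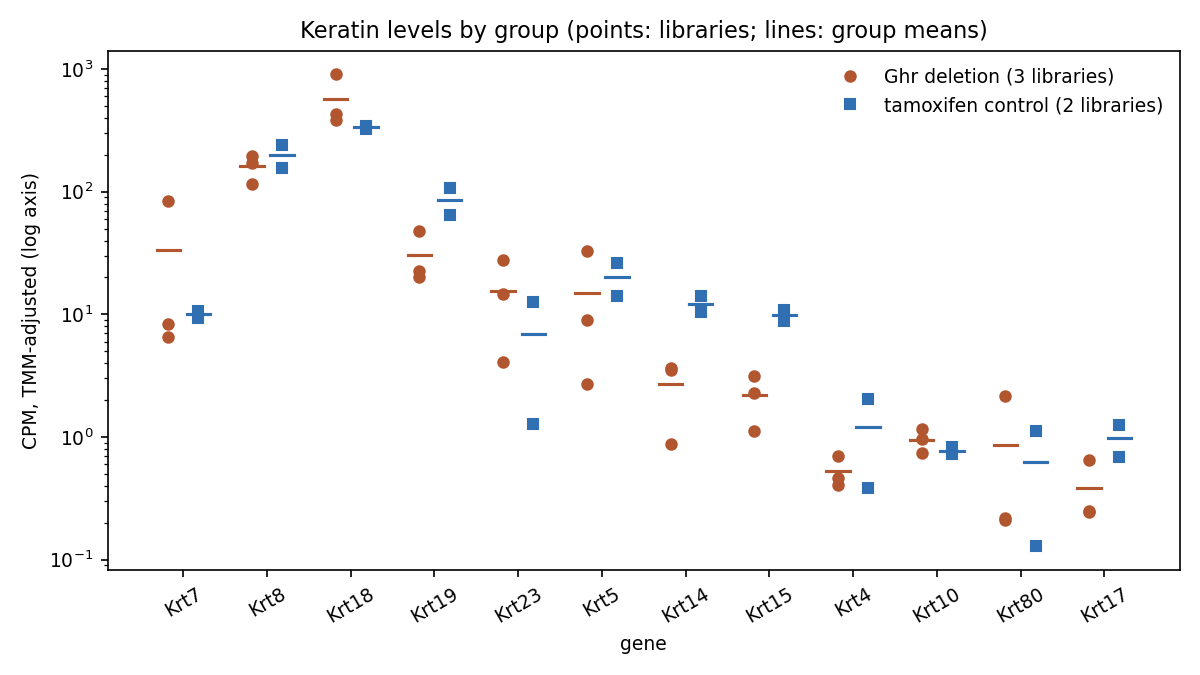
TMM-adjusted CPM (log axis) of the tested keratins that reached 1 TPM in a library, and of Krt17, with 1 point for each library and a line at each group mean, Ghr deletion at the left of each pair and tamoxifen control at the right. The groups do not overlap for Krt18, Krt19, Krt14, Krt15 and Krt17, and 1 deletion library stands far above the rest for Krt7.

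Among the simple keratins, Krt18 had 384, 907 and 427 CPM in the deletion libraries and 345 and 328 CPM in the controls (log2 fold change 0.77, SE 0.478; edgeR adjusted p = 0.995). All deletion libraries were above the controls, deletion replicate 2 by far the most, and without that library the fold change was 0.27. Krt8 had 116, 171 and 196 CPM in the deletion libraries and 157 and 242 CPM in the controls (log2 fold change -0.31, SE 0.356; edgeR adjusted p = 0.995). The groups overlapped, and without control replicate 2 the value was 0.032. Thus the partner chains stood on opposite sides of 0, each by less than 2 SE. Krt19 had 20.1, 22.4 and 48.1 CPM in the deletion libraries and 108 and 64.4 CPM in the controls (log2 fold change -1.51, SE 0.462; edgeR adjusted p = 0.991). It was lower in 3 of 3 deletion libraries, and its fold change stayed below 0 under all 13 alternatives (-2.03 to -0.94).

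Krt7, a type II keratin of simple ducts and of urothelium, had 8.41, 6.48 and 84.6 CPM in the deletion libraries and 10.6 and 9.39 CPM in the controls. Its log2 fold change of 1.73 (SE 1.16; edgeR adjusted p = 0.995) rests on deletion replicate 3, without which it was -0.44. Krt23, a less studied type I keratin of simple epithelium, had 4.07, 14.7 and 27.7 CPM in the deletion libraries and 1.28 and 12.6 CPM in the controls, a log2 fold change of 1.16 (SE 1.09). Both groups were spread widely, and the value was 0.41 without deletion replicate 3, against 3.58 and 0.29 without control replicate 2 or 1.

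The log2 fold changes of the 4 basal keratins were below 0, as were those of 49.6% of tested genes, with a median of -1.74. None passed in edgeR, and the sign of Krt5 depended on the libraries and the scaling used. Krt15, a type I keratin of basal cells (chromosome 11, 100131758 to 100135928, minus strand), had 3.15, 1.13 and 2.26 CPM in the deletion libraries and 8.90 and 10.8 CPM in the controls (log2 fold change -2.18, SE 0.525; edgeR adjusted p = 0.985). DESeq2 gave it an adjusted p of 0.0170. Krt14, the basal type I chain (chromosome 11, 100203162 to 100207548, minus strand), had 3.54, 0.877 and 3.68 CPM in the deletion libraries and 13.99 and 10.4 CPM in the controls (log2 fold change -2.17, SE 0.641). Both were lower in 3 of 3 deletion libraries, and across the 13 alternatives the fold change ran from -2.52 to -1.87 for Krt15 and from -2.75 to -1.71 for Krt14. The edgeR adjusted p of Krt14 was 0.991, and DESeq2 gave 0.0982. Of its 50-base windows 13.9% occur in Krt16 or Krt17, whose counts were far lower. Krt17, known from basal cells and injured skin, was scarce, at 0.245, 0.251 and 0.650 CPM in the deletion libraries and 0.685 and 1.26 CPM in the controls (log2 fold change -1.31, SE 0.752).

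Krt5, the type II partner of Krt14, overlapped between groups. It had 8.97, 2.72 and 33.2 CPM in the deletion libraries and 26.4 and 14.04 CPM in the controls (log2 fold change -0.43, SE 0.931; edgeR adjusted p = 0.996). Deletion replicate 3 was the highest library, and without it the fold change was -1.80. The direction turned to 0.061 without deletion replicate 2, to 0.090 without control replicate 1 and to 0.35 with total counts only. The ratio of Krt14 to Krt5 TPM was 0.525, 0.424 and 0.148 in the deletion libraries and 0.704 and 0.982 in the controls. That of Krt15 to Krt5 overlapped between groups, at 0.616, 0.553 and 0.125 in the deletion libraries and 0.606 and 1.24 in the controls. The share of all genes that separate the groups in such a ratio was not computed. Trp63, the p63 transcription factor of basal cells, had 35.9, 11.2 and 44.9 CPM in the deletion libraries and 36.6 and 27.2 CPM in the controls (log2 fold change -0.06, SE 0.564). Its groups overlapped, and deletion replicate 2 was the lowest library for Trp63, Krt5, Krt14 and Krt15 alike. Krt5 per Trp63 in TPM was 0.512 and 0.552 in deletion replicates 1 and 2, 1.55 in deletion replicate 3, and 1.48 and 1.08 in the controls. Of the 6 mesenchyme and muscle markers, the collagen genes Col1a1 and Col3a1 and Vim were also lower in 3 of 3 deletion libraries in CPM, where 10.2% of tested genes were. In TPM the groups overlapped for these 3 markers. Their log2 fold changes were -1.92 (SE 0.866), -1.64 (SE 0.670) and -1.33 (SE 0.422), and 0 passed in edgeR or DESeq2. The muscle genes Acta2, Myh11 and Des of the same list overlapped between groups, with log2 fold changes of 0.0086 (SE 0.643), 0.36 (SE 0.652) and -0.06 (SE 0.595). The part of tissue content in the basal values was not tested.

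**Figure D4:**
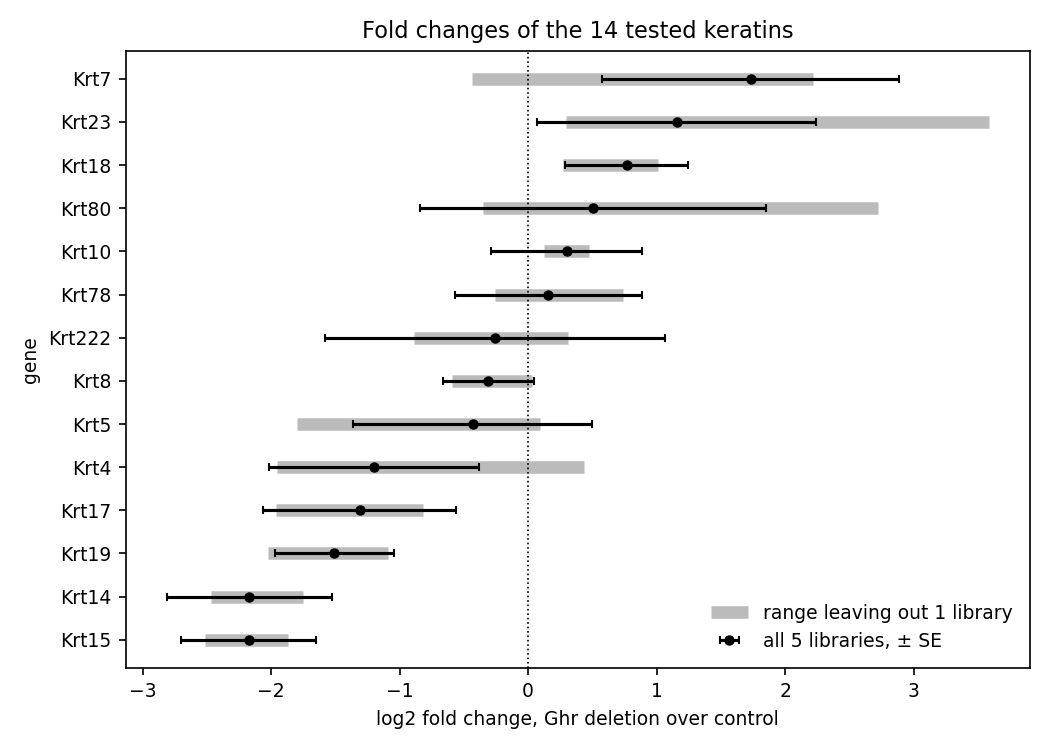
Log2 fold change, Ghr deletion over control, of the 14 tested keratins (black points, bars ± SE) and the range when 1 library at a time is left out (grey). Krt15, Krt14, Krt19 and Krt17 stay below 0 in the grey range, and Krt7 spans 0, at -0.44 without deletion replicate 3.

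Krt20, the umbrella cell keratin (chromosome 11, 99428403 to 99438150, minus strand), had 0, 0 and 1229 counts in deletion replicates 1, 2 and 3 and 0 and 1 counts in the controls. It did not pass the low-count filter, so it was not tested, and no fold is given. It was thus detected at depth in 1 library of 5, where it stood at 24.7 TPM. A floor of 3 counts stands for 0.105 and 0.0940 CPM in deletion replicates 1 and 2 and for 0.128 and 0.145 CPM in the controls, beside 22.8 CPM in deletion replicate 3. Krt13, a type I keratin of stratified mucosa and urothelium, had 0 counts outside deletion replicate 3, where it had 13. Krt12, known from the cornea, had 16.7 expected counts there and 0 elsewhere. None of the transcript windows of Krt20 occurs in another annotated gene, and Krt12 overlaps the antisense gene A830036E02Rik.

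Other genes of the bladder lining were high in the same library. Upk3a, a uroplakin of the umbrella cell surface, was read 1046 times in deletion replicate 3, against 0 counts for each of the others. Upk1a read 0.17, 0.35 and 40.0 TPM in the deletion libraries and 0.04 and 0.40 TPM in the controls. All 6 genes of the urothelium list, Krt20 among them, had counts in deletion replicate 3, against 4 and 3 in deletion replicates 1 and 2 and 4 and 4 in the controls. The list summed to 16.3, 27.3 and 241.5 TPM in the deletion libraries and to 8.40 and 16.7 TPM in the controls, mostly Upk1b outside deletion replicate 3. These sums also carry the unequal TPM scale of the libraries, whose median over tested genes was 6.42 in deletion replicate 3 and 0.56 in control replicate 1. Upk1b made up 116.73 TPM of the sum in deletion replicate 3. In CPM its groups overlapped, at 45.9, 67.1 and 97.8 in the deletion libraries and 77.2 and 23.9 in the controls. Ivl, the involucrin gene of stratified cells, had 1240 counts in deletion replicate 3 and at most 3 elsewhere. Grhl3, a factor of stratified epithelia and urothelium, read 0.03, 0 and 4.47 TPM in the deletion libraries and 0 and 0.02 TPM in the controls. Krt7, Krt23, Krt5, Krt80 and Krt10 also had their highest TPM and CPM in this library. The part of this library's other cell types in the keratin values was not tested, and values without it are given where it moved them.

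**Figure D5:**
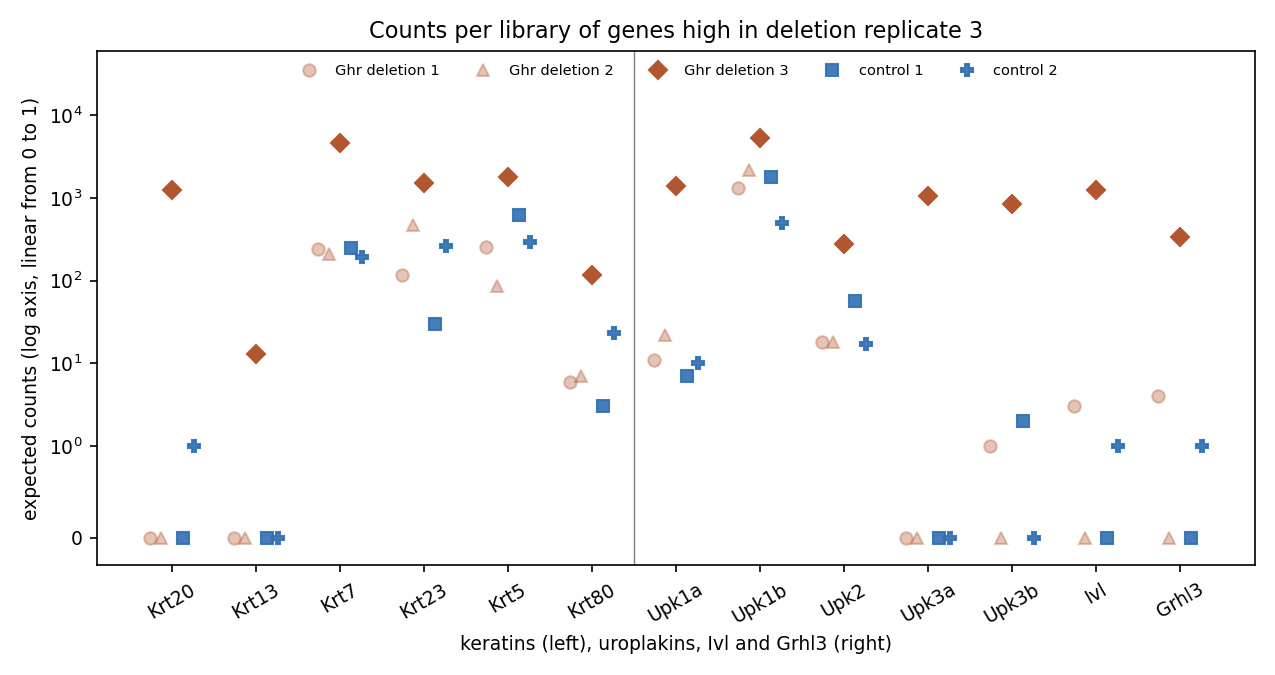
Expected counts per library (log axis, linear from 0 to 1) of 6 keratins and of uroplakins, Ivl and Grhl3, chosen after their values were seen, for 3 Ghr deletion and 2 control libraries of unequal depth. Deletion replicate 3 is highest for all 13 genes, with 1229 counts for Krt20 against at most 1 elsewhere.

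The remaining named members were low. Krt10, the type I keratin of differentiating epidermis, had 0.953 ± 0.208 CPM in the deletion libraries (SD, n = 3) and 0.775 ± 0.0677 CPM in the controls (SD, n = 2). Its usual partner Krt1 had at most 3 counts in any library. Krt4, of stratified mucosa, had 0.701, 0.407 and 0.464 CPM in the deletion libraries and 0.385 and 2.03 CPM in the controls, so its log2 fold change of -1.20 (SE 0.820) rests on control replicate 2, without which it was 0.43. Krt80 had 0.210, 0.219 and 2.15 CPM in the deletion libraries and 0.128 and 1.11 CPM in the controls. The tested members under 1 TPM everywhere other than Krt17 were Krt78 and Krt222, with log2 fold changes of 0.16 (SE 0.729) and -0.26 (SE 1.32). For each of these 5 keratins the groups overlapped.

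Genes that anchor or regulate keratin filaments gave 0 calls in edgeR over all genes. Of 13 tested desmosome genes 0 passed, 9 were below 0 in fold change and the median was -0.26. Dsp, desmoplakin, which ties keratin filaments to the desmosome, had 264, 427 and 487 CPM in the deletion libraries and 318 and 348 CPM in the controls. Perp, a desmosomal membrane protein, had 90.4 ± 35.4 CPM in the deletion libraries (SD, n = 3) and 96.3 ± 69.4 CPM in the controls (SD, n = 2), and the desmosomal cadherin Dsg2 had 80.5 ± 33.5 CPM in the deletion libraries (n = 3) and 68.9 ± 6.96 CPM in the controls (n = 2). All 3 overlapped between groups. Of 9 hemidesmosome genes 0 passed and the median was -0.39. Their most abundant members in TPM, Cd151, Dst and Itga6, overlapped, with log2 fold changes of 0.0069, 0.31 and -0.16.

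Other intermediate filament genes had a median of -0.59 over 8 tested genes, with 0 passing. Vim, the filament of mesenchyme, had 20.9, 8.49 and 14.9 CPM in the deletion libraries and 31.4 and 43.0 CPM in the controls (log2 fold change -1.33, SE 0.422; edgeR adjusted p = 0.991). It was lower in 3 of 3 deletion libraries in CPM, as was Lmna, the nuclear lamin gene, at 18.4, 12.3 and 17.2 CPM in the deletion libraries and 42.4 and 27.9 CPM in the controls. Lmnb2, another lamin gene, was lower too, at 3.36, 1.53 and 3.95 CPM in the deletion libraries and 4.88 and 4.65 CPM in the controls. These were 3 of the 8 tested genes, where 10.2% of all tested genes were lower in this way in CPM. In TPM the groups overlapped for all 3, where 0.688% of tested genes were lower. The muscle filament genes Des and Synm overlapped between groups, with log2 fold changes of -0.06 and 0.91. Keratin regulators, 10 tested, had a median of -0.14 with 0 passing. Their most abundant members in TPM were the epithelial transcription factors Ehf, Grhl2 and Elf3, with log2 fold changes of -0.14 (SE 0.622), 0.071 (SE 0.423) and -0.43 (SE 0.438). DESeq2 passed 0 genes of these 4 lists.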

How the data were processed

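Total RNA of 3 Ghr deletion and 2 tamoxifen control tissues was made into TruSeq Stranded Total RNA libraries, per the labels' protocols. STAR 2.5.3a, RSEM 1.3.0 and build GRCm38 are listed, per the submitters' processing notes; neither annotation release nor strand setting is stated in what was used here. Per the file headers, the authors deposited RSEM's expected counts, which are not normalized, and TPM, corrected for effective gene length. Of 51912 gene IDs, 99.5% had a symbol. Expected counts were rounded and fitted over all 5 libraries with edgeR 4.0.16 in R 4.3.3 (filterByExpr, TMM, robust glmQLFit, glmQLFTest, group as the only term), with Benjamini-Hochberg adjustment over 18615 tested genes. DESeq2 1.42.0, limma-voom (limma 3.58.1), other scalings, no filter, left-out libraries and a replicate block were alternatives. The fit was also run on simulated data with 200 changed genes, and the outcome is not given here. Those data were drawn independently for each gene. They hold no shared differences in tissue content, so they do not check the fit for such differences. TMM factors were 1.00, 0.843 and 1.61 in the deletion libraries and 0.491 and 1.50 in the controls. Floors are 3 counts and cover counting error only. Named keratins are those with at least 1 TPM in a library, and of each partner list the 3 of highest mean TPM. Krt12, Krt13, Krt16, Krt17, Krt78, Krt222, Krt1, Krt6a, Krt6b and the other genes named were chosen after their values were seen. Genes of similar pattern were not sought, since 5 libraries are too few for correlations. The members and lists were chosen with earlier results of these data known. Some genes of the lists are not reported here. Promoters are from RefSeq (36 of the 54 symbols matched) and positions from GENCODE M21.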

Additional observations from a re-analysis of the deposited data

How the results depend on the processing

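Under 13 alternatives to the edgeR fit, the number of keratins passing at an adjusted p under 0.05 was 0 in all but DESeq2, where it was 1 (Krt15). Over all genes the number passing was 0 with all 5 libraries, 46 with total counts only, 166 by DESeq2, 8 with the replicate block, 0 to 48 leaving out 1 library, and 85 without control replicate 1 and deletion replicate 3 together, a choice made after seeing the data. The median log2 fold change of the tested keratins was -0.28, and 0.53 with no low-count filter (31 genes, many with few counts), -1.21 without those 2 libraries, and -0.89 to 0.41 leaving out 1 library. The direction did not change for Krt10, Krt14, Krt15, Krt17, Krt18 and Krt19 in any alternative. It reversed with total counts only for Krt5 (0.35) and Krt222 (0.064), with the replicate block for Krt7 (-0.43) and Krt80 (-0.99), and without the 2 libraries for Krt23 (-0.43), Krt7 (-0.34), Krt80 (-2.35) and Krt78 (-0.068). Leaving out 1 library, fold changes ran from -0.26 to 0.74 for Krt78, from -0.89 to 0.31 for Krt222, from -1.80 to 0.090 for Krt5, from -0.44 to 2.22 for Krt7, from -0.35 to 2.73 for Krt80 (4 of the 5 fits), from -0.59 to 0.032 for Krt8 and from -1.95 to 0.43 for Krt4. Keratins whose groups did not overlap numbered 5 in TMM-adjusted CPM (19.6% of all genes), 4 with upper-quartile factors (19.6%, Krt17 lost), 2 with total counts only (7.87%) and 0 in TPM (5.68%). With expected counts in place of TPM, which are not divided by length, mean shares of keratin transcripts moved to 93.1% simple and 6.32% basal in the controls and to 0.177% mucosal and 0.130% epidermal in the deletion libraries. The cause of the other changes was not tested. Numbers 1 and 2 are shared between groups, and deviations from the group means correlated at 0.180 for number 1 and -0.142 for number 2 across genes. With 2 controls, the deviations of control replicate 2 are those of control replicate 1 with the sign reversed. These 2 values are therefore not independent and cannot decide whether the numbers pair the libraries. The labels give replicate numbers but no pairing, so none was taken in the main fit. Depth and spread between animals were not separated as limits of precision.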
